A study of Rattus norvegicus with 6 samples.

Results

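The genes described here are 40 components of the autophagy and mitophagy machinery of the rat, listed by the step at which their products act and named on the arrays by the single gene symbol of a probe set. Of these, 36 were measured among 17245 genes tested. Ambra1 and Atg2a share their probe sets with a neighbouring gene, Atg4a and Atg4d were not matched to a probe set with a single symbol, and no value is given for these 4. The study compared active and quiescent neural stem and progenitor cells (NSPCs) from the hippocampus of adult rats, grown as neurospheres in N2 medium. A-NSPCs received the mitogen FGF2 alone at 10 ng/ml, whereas Q-NSPCs received the same dose of FGF2 and BMP4 at 50 ng/ml, a ligand that halts the division of these cells, and both were cultured for 4 days. Each condition had 3 arrays, which the labels call biological replicates without naming separate animals, so the p-values measure the spread between these cultures. The arrays were Affymetrix GeneChip Rat Gene 1.1 ST, and the level of a gene is a log2 intensity, on which a difference of 1 is a doubling.

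Autophagy encloses cytoplasm, protein aggregates or organelles in a membrane, the phagophore, which closes into an autophagosome and delivers its content to the lysosome. The ULK kinase complex starts the process, a class III PI3-kinase complex marks the membrane with a lipid, ATG9, ATG2 and WIPI proteins supply and shape it, and a pair of ubiquitin-like conjugation systems attaches ATG8 proteins (LC3 and GABARAP) to it. Cargo receptors link their cargo to the ATG8 proteins, and mitophagy is the removal of mitochondria by this route. Neural stem cells are known to use autophagy and lysosomes to clear protein aggregates, and quiescent stem cells in several tissues are known for it.

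Of the 36 genes, 11 rose and 1 fell in Q-NSPCs, which is 33.3% of them, at an adjusted p under 0.05 in limma, a linear model fitted to all 17245 genes with p-values adjusted over them by the Benjamini-Hochberg method. Among all genes tested, 14.1% passed this threshold, 7.91% as higher and 6.20% as lower in Q-NSPCs. All genes include dim ones, whereas the dimmest member, Atg10, lay at percentile 46.3 of all genes by mean intensity. With 3236 dim genes left out, those with a mean log2 intensity under 6.00, 2664 of 14009 genes were called, and the same 12 of the 36. A background matched to the brightness of the members was not computed. The kinase Ulk1 rose by 0.99 ± 0.15 (SE), the receptor Calcoco1 by 0.92 ± 0.17, the kinase Pink1 by 0.84 ± 0.15 and the lipid-binding protein Wipi1 by 0.81 ± 0.11 on the log2 scale (n = 3 arrays per group), and Atg101 was the 1 gene that fell. The median difference over the 36 genes was 0.26, against 0.01 over all genes, and it ran from -0.50 to 0.99, with 27 genes higher and 9 lower in Q-NSPCs. The 3 arrays of each group did not overlap for 18 of the 36 genes, against 34.0% of all genes. No member reached a difference of 1 on the log2 scale, and few genes did at all, 609 of 17245 in either direction.

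**Figure D1:**
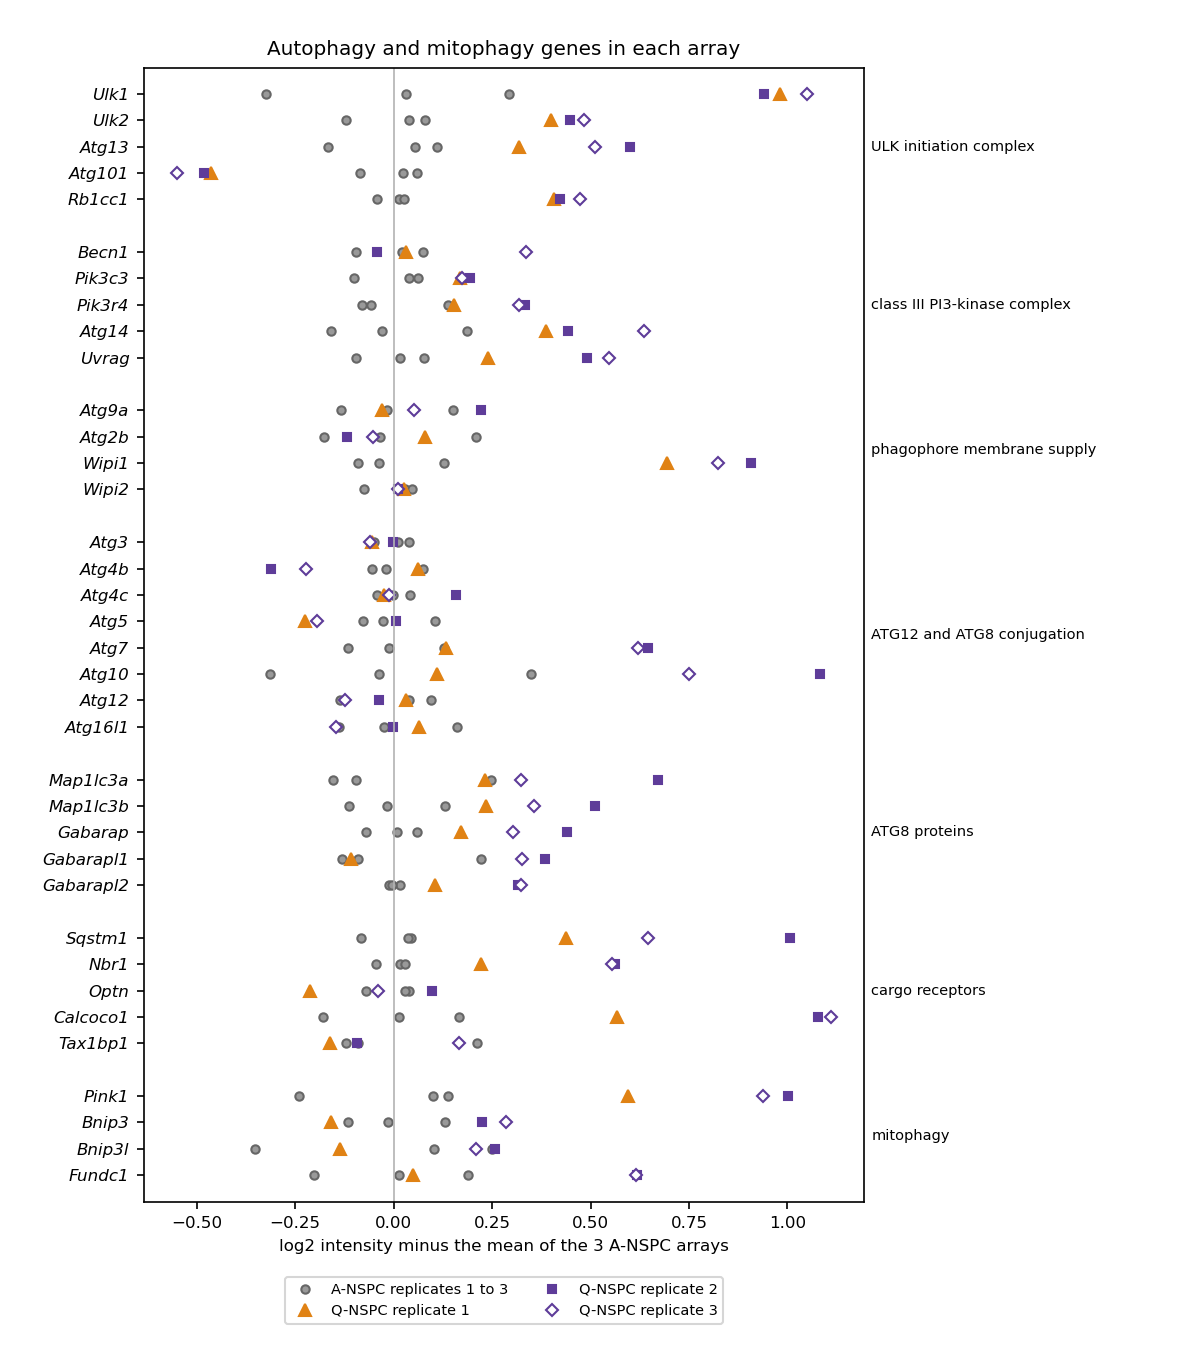
Log2 intensity of each of the 36 genes in every array, as the distance from the mean of the 3 A-NSPC arrays (x axis, log2), with genes grouped by step (y axis). Grey circles are A-NSPC arrays, and the orange triangle, filled square and open diamond are Q-NSPC replicates 1, 2 and 3. The 3 Q-NSPC arrays of Ulk1 and Wipi1 lay to the right of every A-NSPC array, and those of Atg101 to the left.

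The whole-array values set the frame for these genes. On the first principal component, which held 71.1% of the variance, the A-NSPC arrays lay between -28.1 and -25.0, Q-NSPC replicates 2 and 3 at 38.9 and 36.4, and Q-NSPC replicate 1 between the groups at 5.29. Markers of other cells moved with the groups. Of 10 neuron markers 6 rose (Gad1 by 4.40, and Nefl, Tubb3, Syt1, Snap25 and Dcx by 1.17 to 1.79) and Rbfox3 fell, and their mean log2 level was 9.10 to 9.22 in the A-NSPC arrays and 10.04 to 10.55 in the Q-NSPC arrays. Of 8 oligodendrocyte lineage markers 2 fell, with means of 9.60 to 9.70 and of 8.43 to 9.52, and of 8 division markers 6 fell, with means of 11.45 to 11.50 and of 10.18 to 11.16. Of 7 microglia markers and 4 endothelial and mural markers 0 passed in limma, and 0 had an unadjusted p under 0.05. Of 10 neural stem and progenitor markers 3 rose (Gfap by 1.85, Pax6 by 1.07 and Msi1 by 0.52) and Hopx fell by 1.37. By sign, 4 of these 10 markers were higher and 6 lower in Q-NSPCs, with a median difference of -0.07. Among those that did not pass, Hes1 differed by -1.06, Fabp7 by -0.65, Nes by -0.57 and Sox2 by 0.24. The means of the 10 were 10.14 to 10.28 in the A-NSPC arrays and 9.96 to 10.42 in the Q-NSPC arrays. Of 6 astrocyte markers Gfap alone rose. The part of these markers in the differences below was not tested. In bulk cultures fewer cells of a type and less RNA per cell cannot be told apart.

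The first step, the ULK initiation complex, passed the threshold in all of its 5 measured genes, with 4 higher and 1 lower. Ulk1, the protein kinase that starts autophagy and is held back by mTORC1, had log2 intensities of 9.08, 9.70 and 9.44 in A-NSPC replicates 1 to 3 and of 10.39, 10.34 and 10.45 in Q-NSPC replicates 1 to 3. All Q-NSPC arrays were alike and above the highest A-NSPC array, and Ulk1 rose 1.99-fold (log2 difference 0.99 ± 0.15 SE, limma adjusted p = 0.0088). Its paralogue Ulk2 gave 10.21, 10.02 and 10.17 in A-NSPCs and 10.53, 10.58 and 10.62 in Q-NSPCs, again without overlap. Ulk2 rose by 0.44 ± 0.10 (limma adjusted p = 0.0242).

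Atg13, the subunit that ties the kinase to its partners, was at 10.94, 11.22 and 11.16 in A-NSPCs and at 11.42, 11.71 and 11.62 in Q-NSPCs. It rose by 0.48 ± 0.12 (limma adjusted p = 0.0354), with no overlap of the groups. Rb1cc1 (FIP200), the large scaffold of the complex, was at 9.76, 9.70 and 9.77 in A-NSPCs and at 10.15, 10.16 and 10.22 in Q-NSPCs, a rise of 0.43 ± 0.09 (limma adjusted p = 0.0190). A second, dimmer probe set of Rb1cc1 differed by 0.23 and did not pass. Atg101, which stabilises Atg13 in the complex, went the other way. Its log2 intensity was 9.59, 9.55 and 9.44 in A-NSPCs and 9.06, 9.04 and 8.97 in Q-NSPCs, all lower than any A-NSPC array. Atg101 fell by 0.50 ± 0.09 on the log2 scale, 1.41-fold (limma adjusted p = 0.0152).

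Ulk1 passed in each of the 6 fits that left out 1 array, with adjusted p-values from 0.00421 to 0.0455 in limma. Ulk2, Atg13 and Rb1cc1 passed without Q-NSPC replicate 1 and lost the call without any 1 of the other 5 arrays, with adjusted p-values from 0.0577 to 0.125, and Atg101 lost it without A-NSPC replicate 1, Q-NSPC replicate 2 or Q-NSPC replicate 3 (adjusted p from 0.0518 to 0.0711).

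The promoters of these genes are shown because 4 of the 5 moved one way and Atg101 the other. Each is the RefSeq sequence from 250 bases before to 50 bases after the start of the gene in the rat build GRCr8, written 5′ to 3′ on the strand of the gene. Ulk1 lies on the plus strand at chr12:51511242-51511541, Ulk2 on the minus strand at chr10:47029795-47030094, Atg13 on the minus strand at chr3:98136692-98136991 and Atg101 on the plus strand at chr7:134276995-134277294. RefSeq's table held no promoter for Rb1cc1. Capitals mark exact matches on either strand to any of 4 motifs. These are the E-box core CACGTG, the longer palindrome TCACGTGA that TFEB reads at lysosomal genes and that holds the E-box core, the FoxO site GTAAACA, and the site GGCGCC for SMAD proteins of the BMP pathway. Ulk2 held GGCGCC at -199 and -110 from the start and Atg13 at +17, and the windows of Ulk1 and Atg101 held none of the 4 motifs.
Ulk1: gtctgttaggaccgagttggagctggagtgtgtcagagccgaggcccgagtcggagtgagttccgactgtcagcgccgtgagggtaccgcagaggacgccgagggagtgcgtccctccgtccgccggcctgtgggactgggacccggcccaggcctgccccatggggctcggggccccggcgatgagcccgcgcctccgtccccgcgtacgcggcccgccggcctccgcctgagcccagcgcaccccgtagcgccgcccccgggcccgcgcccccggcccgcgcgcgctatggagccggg
Ulk2: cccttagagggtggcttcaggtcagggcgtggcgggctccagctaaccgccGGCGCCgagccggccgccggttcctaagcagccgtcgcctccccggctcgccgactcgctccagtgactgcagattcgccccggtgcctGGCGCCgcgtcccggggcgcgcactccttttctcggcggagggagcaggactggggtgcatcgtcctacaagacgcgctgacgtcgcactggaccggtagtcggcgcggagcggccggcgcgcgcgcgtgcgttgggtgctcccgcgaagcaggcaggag
Atg13: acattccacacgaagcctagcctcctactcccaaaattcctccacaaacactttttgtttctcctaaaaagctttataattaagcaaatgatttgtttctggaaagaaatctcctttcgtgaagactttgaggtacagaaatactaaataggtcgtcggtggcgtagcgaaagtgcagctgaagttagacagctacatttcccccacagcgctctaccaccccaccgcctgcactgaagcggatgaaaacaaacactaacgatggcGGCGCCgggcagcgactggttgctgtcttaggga
Atg101: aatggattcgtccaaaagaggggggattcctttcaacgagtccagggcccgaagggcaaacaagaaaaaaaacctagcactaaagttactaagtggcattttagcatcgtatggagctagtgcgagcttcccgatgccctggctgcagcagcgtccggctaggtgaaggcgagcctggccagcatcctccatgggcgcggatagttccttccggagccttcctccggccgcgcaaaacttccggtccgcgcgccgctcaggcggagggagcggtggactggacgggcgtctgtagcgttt

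**Figure D2:**
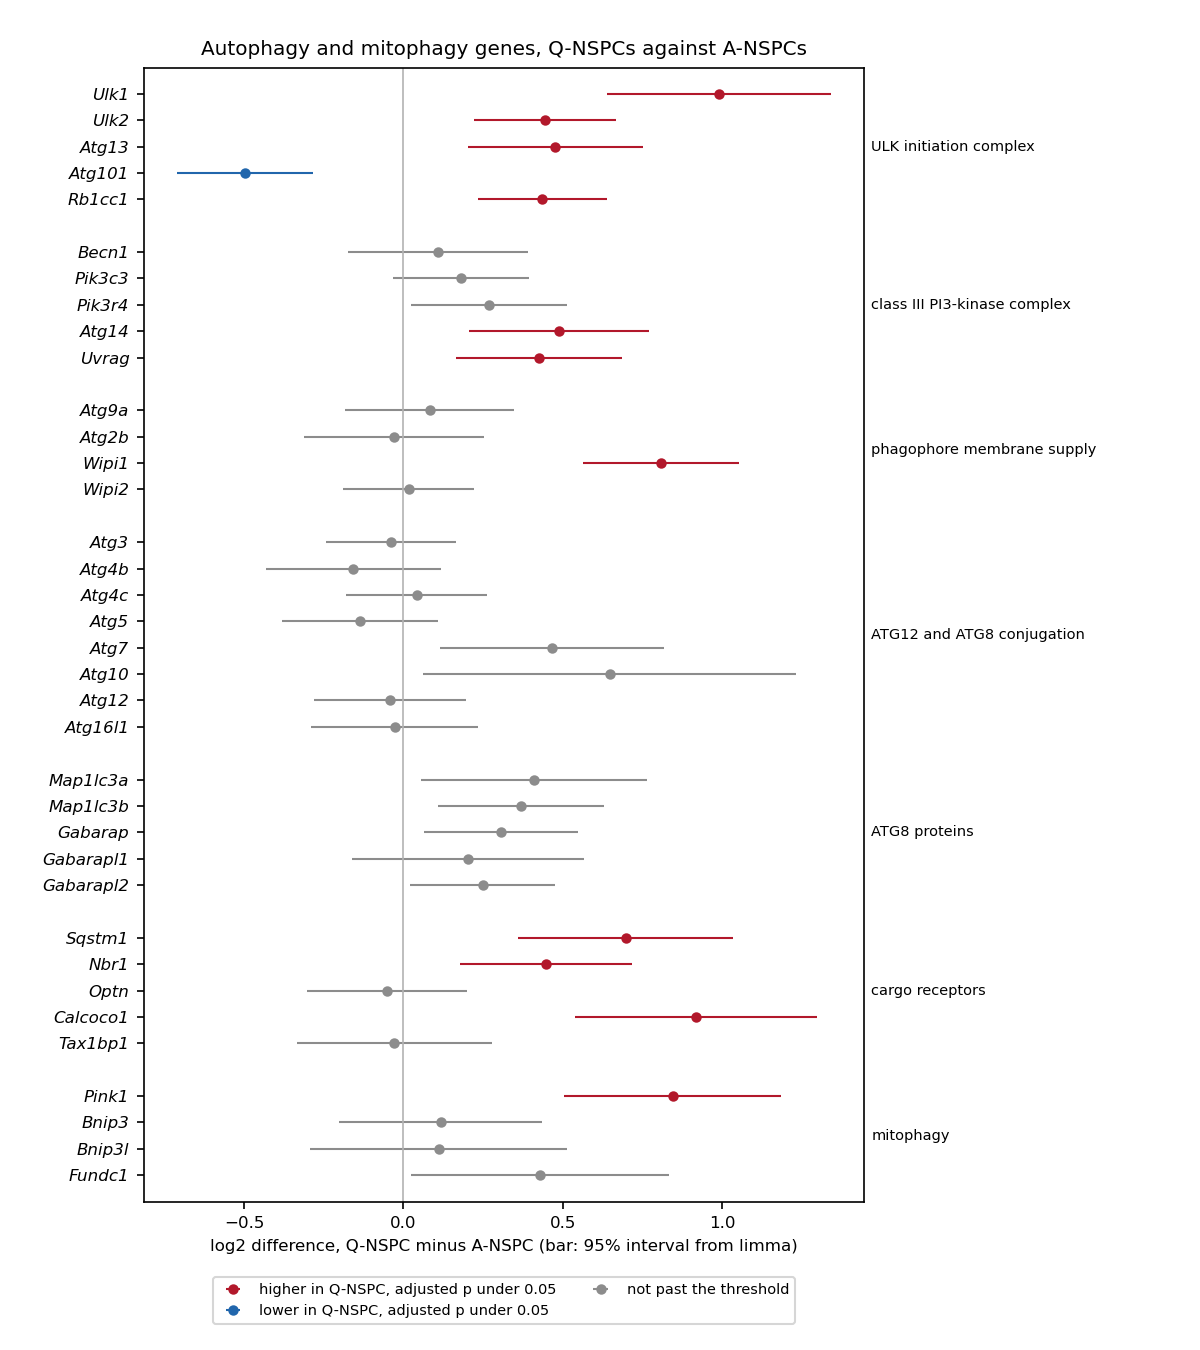
Log2 difference between Q-NSPCs and A-NSPCs (x axis, Q-NSPC minus A-NSPC, 3 arrays per group) for each of the 36 genes by step (y axis), with the 95% interval from limma as a bar. Red marks the 11 genes that rose, blue the 1 that fell and grey the 24 that did not pass an adjusted p of 0.05.

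In the class III PI3-kinase complex, which makes the lipid PI3P on the growing membrane, 2 of 5 measured genes rose and the core enzyme did not pass. Atg14, the subunit that directs the kinase to autophagosome formation, was at 8.10, 8.44 and 8.23 in A-NSPCs and at 8.64, 8.70 and 8.89 in Q-NSPCs. The groups did not overlap, and Atg14 rose by 0.49 ± 0.12 (limma adjusted p = 0.0357). Uvrag takes the place of Atg14 in a second form of the complex that acts in endosome traffic and autophagosome maturation. It was at 9.89, 10.06 and 10.00 in A-NSPCs and at 10.22, 10.47 and 10.53 in Q-NSPCs, a rise of 0.43 ± 0.11 (limma adjusted p = 0.0436).

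The subunits that both forms share gave smaller differences. Pik3r4 (VPS15), the regulatory subunit, differed by 0.27 (95% interval 0.02 to 0.51), Pik3c3 (VPS34), the lipid kinase itself, by 0.18 (-0.03 to 0.39) and Becn1, its activator, by 0.11 (-0.17 to 0.39), with limma adjusted p-values of 0.135, 0.246 and 0.63. The 3 arrays of each group did not overlap for Pik3r4 and Pik3c3, as for 34.0% of all genes, and overlapped for Becn1. Atg14 lost the call without A-NSPC replicate 1, A-NSPC replicate 3, Q-NSPC replicate 2 or Q-NSPC replicate 3 (limma adjusted p from 0.0907 to 0.133), and Uvrag without any 1 array but Q-NSPC replicate 1 (0.0779 to 0.156) or with each array centred on its median. The promoter of Atg14 is shown as 1 of the 2 promoters among risers with an E-box, CACGTG at +7. It lies on the minus strand of GRCr8 at chr15:23306766-23307065.
Atg14: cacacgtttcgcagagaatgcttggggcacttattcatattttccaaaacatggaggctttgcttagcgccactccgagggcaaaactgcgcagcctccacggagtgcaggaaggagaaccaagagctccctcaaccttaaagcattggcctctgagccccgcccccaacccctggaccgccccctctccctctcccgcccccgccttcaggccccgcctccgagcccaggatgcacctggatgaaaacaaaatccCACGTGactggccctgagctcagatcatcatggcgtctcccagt

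Among the genes that supply membrane to the phagophore, Wipi1 rose and the other 3 measured genes lay close to 0. Wipi1, a propeller-shaped protein that binds PI3P on the phagophore, was at 9.89, 10.10 and 9.94 in A-NSPCs and at 10.67, 10.88 and 10.80 in Q-NSPCs. Each Q-NSPC array was above every A-NSPC array, and Wipi1 rose 1.75-fold (log2 difference 0.81 ± 0.11 SE, limma adjusted p = 0.00553), with adjusted p-values from 0.00099 to 0.0364 in the 6 fits that left out 1 array. Its relative Wipi2, which recruits ATG16L1 to the membrane, differed by 0.02 (95% interval -0.19 to 0.22). Atg9a, the lipid scramblase carried on small vesicles, differed by 0.08 (-0.18 to 0.35), and Atg2b, a lipid transfer protein, by -0.03 (-0.31 to 0.25). The groups overlapped for all 3.

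The 8 measured genes of the ATG12 and ATG8 conjugation systems gave 0 calls in limma and 2 at an unadjusted p under 0.05, beside 29.5% of all genes at that level, and their median difference was -0.03. Atg10, the E2-like enzyme for ATG12, had the largest difference of the step. Its log2 intensity was 7.97, 7.58 and 7.31 in A-NSPCs and 7.73, 8.70 and 8.37 in Q-NSPCs. Q-NSPC replicate 1 lay within the A-NSPC range, so the groups overlapped, and the difference was 0.65 ± 0.25 (limma adjusted p = 0.132). Atg7, the E1-like enzyme that activates both ATG12 and the ATG8 proteins, was at 9.29, 9.40 and 9.54 in A-NSPCs and at 9.54, 10.05 and 10.03 in Q-NSPCs. The lowest Q-NSPC array was level with the highest A-NSPC array at 2 decimals, and the difference was 0.47 ± 0.15 (limma adjusted p = 0.0791).

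The other 6 genes of conjugation lay between -0.16 and 0.04. Atg3, the E2-like enzyme for ATG8 proteins, differed by -0.04 (95% interval -0.24 to 0.17). The parts of the E3-like complex differed by -0.14 for Atg5 (-0.38 to 0.11), -0.04 for Atg12 (-0.28 to 0.19) and -0.03 for Atg16l1 (-0.29 to 0.23). The proteases that trim ATG8 proteins before conjugation and release them later differed by -0.16 for Atg4b (-0.43 to 0.12) and 0.04 for Atg4c (-0.18 to 0.26). The groups overlapped for all 6 genes. Without Q-NSPC replicate 1, Atg7 rose by 0.63 (limma adjusted p = 0.00462) and Atg10 by 0.92 (0.0106), in a fit that called 23.7% of all genes. Neither gene passed with any other array left out.

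All 5 genes of the ATG8 family were higher in Q-NSPCs, by 0.20 to 0.41, and 0 of them passed in limma, while 4 had an unadjusted p under 0.05, as did 16.2% of all genes in this direction. Map1lc3a, which codes for LC3A, was at 8.63, 8.98 and 8.57 in A-NSPCs and at 8.96, 9.40 and 9.05 in Q-NSPCs. Replicate 1 of Q-NSPCs lay just below the highest A-NSPC array, and the difference was 0.41 ± 0.15 (limma adjusted p = 0.118). Map1lc3b, which codes for the LC3B protein most used to follow autophagosomes, was at 11.86, 12.01 and 11.76 in A-NSPCs and at 12.11, 12.39 and 12.23 in Q-NSPCs. Its groups did not overlap, and the difference was 0.37 ± 0.11 (limma adjusted p = 0.0659). A second, dimmer probe set of Map1lc3b differed by 0.28, and there the groups overlapped.

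The GABARAP branch acts at closure of the autophagosome and its fusion with the lysosome. Gabarap was at 12.70, 12.76 and 12.63 in A-NSPCs and at 12.87, 13.14 and 13.00 in Q-NSPCs, a difference of 0.31 (95% interval 0.06 to 0.55, limma adjusted p = 0.0912). Gabarapl2 differed by 0.25 (0.02 to 0.48, adjusted p = 0.138) and Gabarapl1 by 0.20 (-0.16 to 0.57, adjusted p = 0.46). Gabarap and Gabarapl2 did not overlap between the groups and Gabarapl1 did. A second, dimmer probe set of Gabarapl2 differed by 0.35, with overlap of the groups. Without Q-NSPC replicate 1, Map1lc3b, Gabarap and Gabarapl2 rose by 0.43, 0.37 and 0.32 (limma adjusted p = 0.0299, 0.0373 and 0.0473). That fit called 23.7% of all genes, and these genes did not pass with any other array left out. With all arrays kept, Map1lc3b and Gabarap also passed under some of the other settings, given at the end. The arrays measure RNA, and neither the conjugation of ATG8 proteins nor the rate of autophagy was measured by them.

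Of the 5 cargo receptors, 3 rose and 2 lay close to 0. Calcoco1, known from human cells as a receptor for autophagy of the endoplasmic reticulum, was at 10.28, 10.63 and 10.47 in A-NSPCs and at 11.03, 11.54 and 11.57 in Q-NSPCs. The groups did not overlap, and Calcoco1 rose 1.89-fold (log2 difference 0.92 ± 0.17 SE, limma adjusted p = 0.0140). Sqstm1 codes for p62, which binds ubiquitylated cargo and is itself degraded with it. Its log2 intensity was 10.94, 10.93 and 10.81 in A-NSPCs and 11.33, 11.90 and 11.54 in Q-NSPCs, where replicate 2 was highest. Sqstm1 rose by 0.70 ± 0.15 (limma adjusted p = 0.0217).

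Nbr1, a relative of p62 that works with it on ubiquitylated cargo, was at 11.84, 11.86 and 11.78 in A-NSPCs and at 12.05, 12.39 and 12.38 in Q-NSPCs. It rose by 0.45 ± 0.12 (limma adjusted p = 0.0409), and the groups did not overlap. Optn, which brings autophagosomes to ubiquitylated mitochondria and bacteria, differed by -0.05 (95% interval -0.30 to 0.20), and Tax1bp1, of the same family as Calcoco1, differed by -0.03 (-0.33 to 0.28). Both overlapped between the groups. Nbr1 and Sqstm1 lost the call without any 1 array but Q-NSPC replicate 1 (limma adjusted p from 0.0517 to 0.147), and Calcoco1 without A-NSPC replicate 1, A-NSPC replicate 3, Q-NSPC replicate 2 or Q-NSPC replicate 3 (0.0502 to 0.0688).

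Of the 4 mitophagy genes, Pink1 rose. PINK1 is the kinase that builds up on damaged mitochondria and recruits the ubiquitin ligase parkin. Its RNA was at 8.99, 9.37 and 9.33 in A-NSPCs and at 9.82, 10.23 and 10.17 in Q-NSPCs, without overlap. Pink1 rose 1.80-fold (log2 difference 0.84 ± 0.15 SE, limma adjusted p = 0.0131), and lost the call without A-NSPC replicate 1 (adjusted p = 0.0598) or Q-NSPC replicate 3 (0.0644). Its promoter is shown because it was the 1 promoter of a riser with 2 E-boxes, CACGTG at -161 and -98. It lies on the minus strand of GRCr8 at chr5:155825901-155826200.
Pink1: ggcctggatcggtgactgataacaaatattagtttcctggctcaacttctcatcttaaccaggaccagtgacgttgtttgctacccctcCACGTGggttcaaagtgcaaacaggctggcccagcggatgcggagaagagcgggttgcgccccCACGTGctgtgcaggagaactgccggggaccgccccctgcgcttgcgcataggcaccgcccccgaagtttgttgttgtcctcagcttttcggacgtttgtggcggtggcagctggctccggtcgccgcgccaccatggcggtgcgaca

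The receptors that sit in the outer membrane of mitochondria and bind ATG8 proteins directly did not pass. Fundc1 was at 9.94, 9.55 and 9.77 in A-NSPCs and at 9.80, 10.37 and 10.37 in Q-NSPCs, a difference of 0.43 ± 0.18 (limma adjusted p = 0.149). Replicate 1 of Q-NSPCs lay among the A-NSPC arrays and the other Q-NSPC arrays above them. Without replicate 1, Fundc1 rose by 0.62 (limma adjusted p = 0.0108), in a fit that called 23.7% of all genes. Fundc1 did not pass with any other array left out. Bnip3 differed by 0.12 (95% interval -0.20 to 0.44) and Bnip3l, also called NIX, by 0.11 (-0.29 to 0.51), with overlap of the groups for both. A second probe set of Bnip3 differed by -0.0048.

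Replicate 1 of Q-NSPCs did not stand as far from A-NSPCs as the other Q-NSPC arrays for most of these genes. For 11 of the 12 genes that passed, replicate 1 lay nearer the A-NSPC mean than replicates 2 and 3 did, and Ulk1 was the exception. The share of all called genes with this order was not counted. Over the whole arrays replicate 1 also lay between the groups, so the count cannot be called particular to these genes. As a percent of the mean difference of replicates 2 and 3, that of replicate 1 was 98.7 for Ulk1, 90.8 for Rb1cc1, 89.5 for Atg101, 85.7 for Ulk2 and 57.2 for Atg13 in the ULK complex. It was 80.2 for Wipi1, 71.6 for Atg14, 61.4 for Pink1, 53.0 for Sqstm1, 51.7 for Calcoco1, 46.1 for Uvrag and 39.9 for Nbr1. Among the 8 genes that reached only an unadjusted p under 0.05, it was 54.3 for Map1lc3b, 47.0 for Pik3r4, 46.5 for Map1lc3a, 46.1 for Gabarap, 33.1 for Gabarapl2, 21.0 for Atg7, 12.1 for Atg10 and 7.88 for Fundc1. The p-values that split the genes came from these same arrays, so the percents are not independent of the split. Over the 36 genes the median difference from the A-NSPC mean was 0.11 in replicate 1 and 0.34 in replicates 2 and 3, and that of the 8 division markers was -0.27 and -1.25.

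Without Q-NSPC replicate 1, 17 of the 36 genes rose and 1 fell, beside 23.7% of all genes called in that fit and 12.7% called higher. The other 5 arrays moved the count the other way when left out. The count of members called was 2, 6 and 4 when A-NSPC replicates 1, 2 and 3 were dropped in turn, and 3 and 2 when Q-NSPC replicates 2 and 3 were dropped. In the same fits 2.43%, 6.94% and 2.86%, and 4.48% and 2.71%, of all genes were called. Ulk1 and Wipi1 were the 2 genes called in all 6 of these fits. No called gene took another sign in any of the 16 alternatives run.

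**Figure D3:**
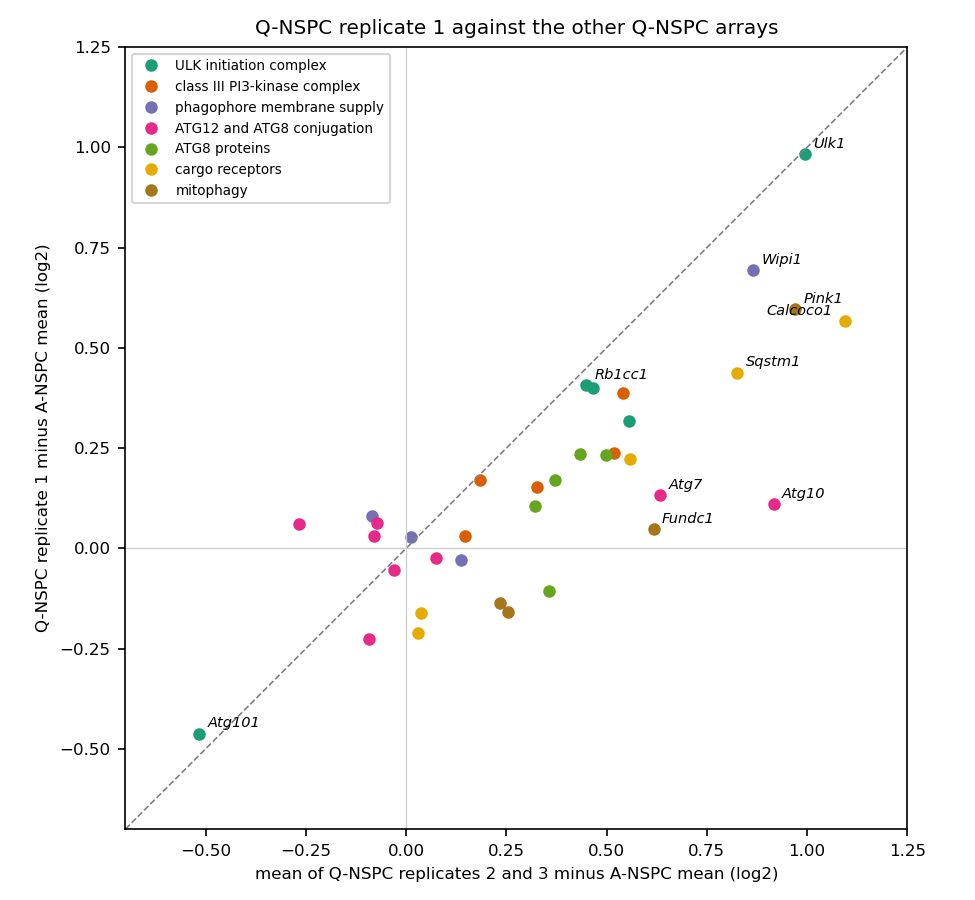
Difference from the A-NSPC mean in Q-NSPC replicate 1 (y axis, log2) against the mean of Q-NSPC replicates 2 and 3 (x axis, log2) for the 36 genes, coloured by step. On the dashed line both would be equal, and Ulk1 (0.98 and 0.99) lay on it while Atg10 (0.11 and 0.92) and Fundc1 (0.05 and 0.62) lay far below.

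Other genes of the pathway gave 22 rises and 1 fall among 126 measured, or 18.3%, beside 14.1% of all genes, with a median difference of 0.18. Of these calls, 9 rises and the 1 fall came from the 31 genes of the lysosomal list. With dim genes left out, 2664 of 14009 genes were called in all. That share lay close to the 18.3%, which came from the fit with all genes. Of all genes, 7.91% were called higher. Of 19 other genes of autophagosome formation 5 rose (26.3%). These were Zfyve1 (0.71 ± 0.14), whose product DFCP1 marks the sites where phagophores form, the rat gene of C9orf72, a protein known in human cells to act with the ULK complex (listed as RGD1359108, 0.74 ± 0.11), Tp53inp1 (0.71 ± 0.16) and Tp53inp2 (0.84 ± 0.20), which bind ATG8 proteins, and Rubcn (0.35 ± 0.10), which holds back the Uvrag form of the PI3-kinase complex. Of 23 other genes of selective autophagy and mitophagy 2 rose (8.70%), Retreg2 (0.76 ± 0.15), a relative of the endoplasmic reticulum receptor FAM134B, and Wdfy3 (0.50 ± 0.12), which links aggregates to the machinery.

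Upstream of the ULK complex, 3 of 34 regulators of mTORC1, AMPK, TFEB and FoxO rose, or 8.82%, a share close to the 7.91% of all genes called higher. Sesn3, a sestrin that restrains mTORC1, was at 10.84, 11.20 and 11.04 in A-NSPCs and at 11.81, 12.03 and 12.16 in Q-NSPCs, a rise of 0.97 ± 0.13 (limma adjusted p = 0.00624) with no overlap. Foxo3, a transcription factor that turns on autophagy genes and is needed for adult neural stem cells in the mouse, rose by 0.72 ± 0.13, and Flcn, the folliculin that acts on Rag GTPases at the lysosome, by 0.64 ± 0.11. The other measured FoxO genes of the list, Foxo1 and Foxo4, differed by -0.34 and -0.18 and did not pass. At the far end of the pathway, 3 of 19 fusion genes (15.8%) rose, the tethering subunits Vps39 (0.43 ± 0.11) and Vps41 (0.43 ± 0.11) and their partner Plekhm1 (0.55 ± 0.10).

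Among 31 genes for lysosomal hydrolases and membrane proteins 9 rose and 1 fell, 32.3% beside 14.1% of all genes. The risers included the sulphatases Ids (0.79 ± 0.11), Arsa (0.80 ± 0.14) and Arsb (0.51 ± 0.12), the glucosaminidase Naglu (0.51 ± 0.11), the sialidase Neu1 (0.68 ± 0.15), the saposin precursor Psap (0.48 ± 0.11) and the membrane protein Lamp1 (0.49 ± 0.12). Gm2a, the activator protein for ganglioside breakdown, was at 11.76, 11.82 and 11.80 in A-NSPCs and at 11.31, 11.02 and 10.86 in Q-NSPCs. It fell by 0.73 ± 0.13 (limma adjusted p = 0.0127), and its groups did not overlap. The calls in these lists also depended on single arrays, and without A-NSPC replicate 1, where 2.43% of all genes were called, they came to 1 of formation, 0 of selective autophagy, 1 upstream, 0 of fusion and 2 of the lysosome.

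**Figure D4:**
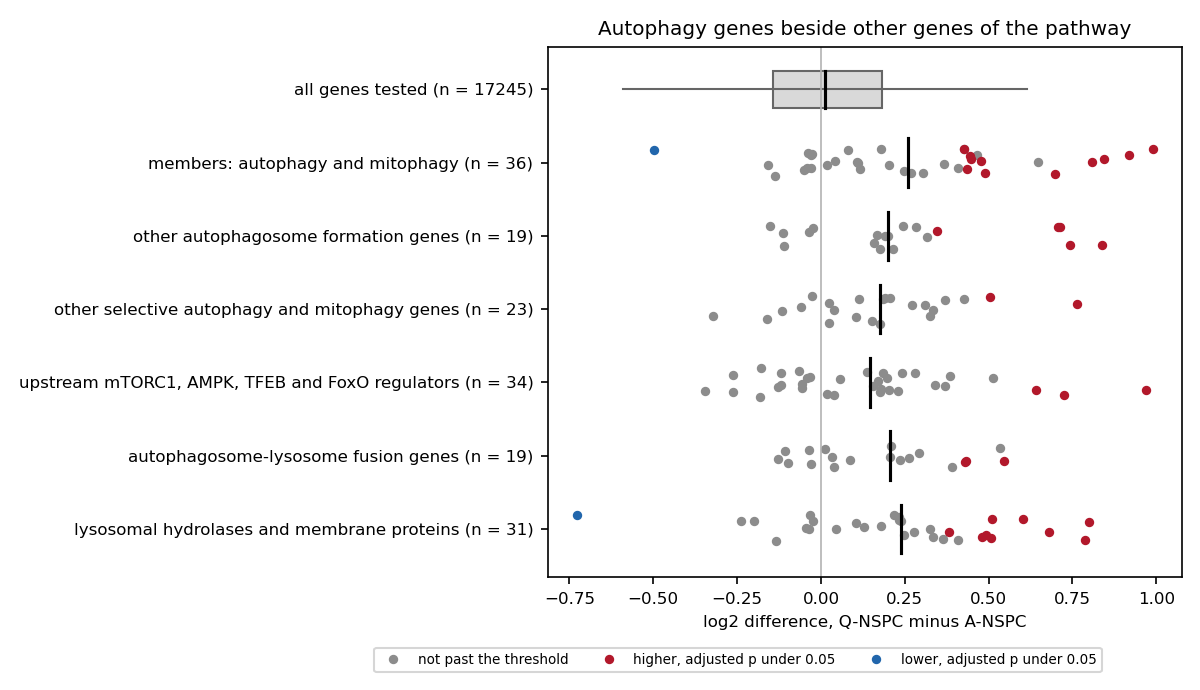
Log2 difference (x axis, Q-NSPC minus A-NSPC) of each of the 36 autophagy and mitophagy genes and of the genes of 5 further lists of the pathway (y axis), with red for called higher, blue for called lower, grey for not called and a black line at each median. For all 17245 genes the box spans the middle 50% and the line the middle 90%, and the medians were 0.26 for the 36 genes and 0.01 for all genes.

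RefSeq's table held promoters for 34 of the 40 listed genes, among them 10 of the 11 that rose. CACGTG was found in 5 of the 34 (14.7%) and in 2 of the 10 risers (20.0%), Atg14 and Pink1, against 7.96% of 14117 promoters of tested genes of the same length. The longer TCACGTGA was found in 1 of the 34, Atg3, which did not pass, and in 1.22% of all promoters. GTAAACA was found in 0 of the 34 and in 2.80% of all promoters. GGCGCC was found in 6 of the 34 (17.6%) and in 2 of the 10 risers (20.0%), Ulk2 and Atg13, beside 16.9% of all promoters. The short core ACGTG, read by hypoxia-inducible factors and contained in CACGTG, was found in 11 of the 34 (32.4%), in 2 of the 10 risers (20.0%) and in 22.0% of all promoters. These are matches of letters in a window of 300 bases and were not tested as sites.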

How the data were processed

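RNA of 6 neurosphere cultures of adult rat hippocampal NSPCs was measured on 1 array each, 3 of A-NSPCs and 3 of Q-NSPCs, grouped by the deposited labels. The log2 intensities were made by the authors with RMA, which removes background, makes the distributions of the arrays alike and summarises the probes of a probe set, in Affymetrix Expression Console and Partek 6.10, per the submitters' processing notes, and were used as deposited. RMA gives no detection calls, so no dim gene was left out, and the number of arrays limits the precision. Scanner files were not used here. Of 29214 probe sets, 18644 carry 1 gene symbol in the platform annotation, 962 several and 9608 none. Each of 17245 genes was represented by its brightest probe set, taken by the mean of the 6 arrays.

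The test was limma 3.58.1 in R 4.3.3 (group means, eBayes, two-sided), with Benjamini-Hochberg adjustment over all 17245 genes and a threshold of 0.05. Alternatives were another quantile normalization, centring of arrays, other probe sets, a filter on dim genes, trend and robust settings, array weights, a replicate block, the unpaired and paired tests named in the study's methods, and each array left out. Deviations of same-numbered arrays from their group means correlated at -0.06, 0.01 and -0.03, so the numbers were not used as pairs. On simulated data made from these arrays (17245 genes), Q-NSPC against A-NSPC gave calls for 17 of 50 genes at a 1.5-fold change, for 35 of 50 at 2-fold, for 48 of 50 at 4-fold and for 50 of 50 at 8-fold, and 10 false calls among 17045 genes. The simulation changed 200 genes, fewer than the 2433 called in the data, and drew normal noise independently for each array. It held no array between the groups, so these rates may not carry over to the data.

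Members and lists were chosen with earlier results of these data known. All members may be named. Full values are given for those past the threshold and for the largest difference of each step, and from each other list up to 8 genes past the threshold by smallest p. Values of Atg7, Map1lc3b, Gabarap and Fundc1 by array were added after they were seen. Promoters came from RefSeq's table of GRCr8, and the motifs were searched on both strands.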

Additional observations from a re-analysis of the deposited data

How the results depend on the processing

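Signs were kept in 559 of 576 values of the 36 genes under 16 alternatives, and no called gene changed sign. The 17 other values belonged to 10 genes that did not pass. With 1 array left out, the difference ranged from -0.0057 to 0.184 for Becn1, from -0.118 to 0.075 for Atg2b, from -0.0207 to 0.0395 for Wipi2, from -0.0175 to 0.0738 for Atg4c, from -0.111 to 0.0052 for Atg12, from -0.0963 to 0.0534 for Atg16l1, from -0.126 to 0.029 for Optn, from -0.127 to 0.0769 for Tax1bp1 and from -0.0649 to 0.235 for Bnip3l. The remaining values were 0.0467 for Atg2b with the mean of its probe sets and 0.124 with its dimmest, 0.0097 for Tax1bp1 with array weights and -0.0048 for Bnip3 with its dimmest probe set.

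With 1 array left out, the count of called genes ranged from 2 to 18 among the 36 (12 with all arrays), from 419 to 4079 among all genes (2433 with all arrays), from 1 to 6 in other autophagosome formation, from 0 to 6 in other selective autophagy, from 1 to 9 upstream, from 0 to 5 in fusion and from 1 to 14 in the lysosomal list. Each of these fits has fewer degrees of freedom, and the one without Q-NSPC replicate 1 gave the highest count in every list named here. Array weights, which gave Q-NSPC replicate 1 a weight of 0.46, called 18 members, 4028 genes in all, 8 in selective autophagy, 6 upstream and 5 in fusion. The members gained with these weights were Atg7, Atg10, Map1lc3a, Map1lc3b, Gabarap and Fundc1.

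With the replicate number as a block, 8 members were called and Ulk2, Atg14, Uvrag and Nbr1 were lost, with 2043 genes called in all and 1 in fusion. The methods' unpaired test called 0 genes after adjustment, among all genes, the members and each list alike, and 4241 genes (24.6%), 17 members, 11 in selective autophagy, 7 upstream and 5 in fusion at an unadjusted p under 0.05. The methods' paired test, which uses the replicate block, called 1 gene, 0 members and 0 in each list after adjustment, and 2716 genes (15.7%), 12 members, 6 in selective autophagy and 6 upstream at an unadjusted p under 0.05. The other settings called 11 to 14 members. Map1lc3b was gained with quantile normalization repeated, where 2382 genes were called in all. Trend and robust settings gained Map1lc3b and Gabarap, with 2523 genes called in all. The causes of these differences were not tested.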
